A study of Mus musculus with 4 samples.

Results

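The region of mouse chromosome 8 that carries the α- and β-defensin gene clusters held 267 of the 48681 peaks of the linker histone H1t. Its members were selected by position: every listed peak whose centre lay between 17600001 and 25000000 on GRCm38 belonged to it. The limits had been set around a stretch already seen to be dense in this same list of peaks, so the number of peaks, their density and every other value of the list describe the members and are no test of them. The list was made from 2 H1t ChIP libraries and 2 input libraries of testicular cells from C57BL6 mice at postnatal day 20, and the labels name no genetic change or treatment. Chromatin was cross-linked with formaldehyde and sheared by sonication, H1t was pulled down with an antibody against it, and input was the same chromatin without the pull-down. The labels name the cells pachytene cells, whereas the methods describe whole dissected testes with no sorting, and a list of peaks carries no marker level against which the cell type could be checked. The authors pooled each pair of libraries before peak calling, so no peak has a value per library, nothing could be compared between replicates, and all 95% ranges given with a value cover counting error only.

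Linker histones bind the DNA where it enters and leaves the nucleosome and help to fold chromatin, and H1t is the variant made in spermatocytes during meiosis. Defensins are small cationic peptides that disrupt microbial membranes. In the mouse, the α-defensins (cryptdins) are secreted by Paneth cells of the small intestine, and β-defensins are made by many epithelia, including those of the male reproductive tract. Both families have grown by tandem duplication, and such clusters contain many near-identical genes, pseudogenes and unfinished stretches of assembly. Reads from one copy can align as well to another, which makes both the ChIP and the input signal of these stretches harder to place.

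Joining defensin genes that lay within 500 kb of each other split the region into 5 stretches. These were a proximal flank from 17600001 to 18974939, a first defensin cluster from 18974940 to 19497775 that held mostly β-defensin genes, an interval between the clusters from 19497776 to 20892668, a second cluster from 20892669 to 21948850 with most of the α-defensin genes, and a distal flank from 21948851 to 25000000. The excess of peaks lay in neither cluster of defensin genes but in the interval between them, a stretch with duplicated gene models and without a defensin gene. Of the 267 members, 131 (49.1%) were in this interval, which made up 14.8% of the ungapped sequence of the region.

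Of the interval's 131 peaks, 119 (90.8%) had at least 1 near-identical copy elsewhere in the region. The interval's peak with the highest fold (19926720 to 19928383, fold 2.47) had 5 further full-length copies in the interval, 97.1% to 98.9% identical to it, and each of the 6 copies lay at least partly under a listed peak. The middle 120 bases of the copies without an alignment gap are shown 5′ to 3′ in the direction of the first copy, with capitals at bases that differ from it. The sequences are from the reference genome, GRCm38, not from reads.
Copy 1, chr8:19927491-19927610, plus strand: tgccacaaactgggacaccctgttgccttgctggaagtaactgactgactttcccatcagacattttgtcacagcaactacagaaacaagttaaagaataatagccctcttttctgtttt
Copy 2, chr8:19755303-19755422, plus strand: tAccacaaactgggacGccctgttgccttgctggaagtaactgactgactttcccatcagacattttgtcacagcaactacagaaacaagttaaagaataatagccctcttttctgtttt
Copy 3, chr8:20064927-20065046, plus strand: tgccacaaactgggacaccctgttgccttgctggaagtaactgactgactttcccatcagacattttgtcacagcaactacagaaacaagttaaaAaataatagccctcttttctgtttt
Copy 4, chr8:20335781-20335900, minus strand: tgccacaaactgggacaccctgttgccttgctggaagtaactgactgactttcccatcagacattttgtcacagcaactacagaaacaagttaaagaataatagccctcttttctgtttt
Copy 5, chr8:20507685-20507804, plus strand: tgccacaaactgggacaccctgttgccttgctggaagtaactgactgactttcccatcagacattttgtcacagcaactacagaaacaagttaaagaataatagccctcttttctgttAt
Copy 6, chr8:20642461-20642580, plus strand: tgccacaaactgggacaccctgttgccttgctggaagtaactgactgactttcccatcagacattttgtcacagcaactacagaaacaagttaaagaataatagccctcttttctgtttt

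Copies 4 and 6 did not differ from copy 1 over these 120 bases, and the other copies differed from it at 1 or 2 bases. Not all of the bases shown lay under a peak. The peak over part of copy 3 ends at 20064644, before the window, so the window of copy 3 lay under no peak. The peak over part of copy 4 starts at 20335888, so the window of copy 4 overlapped it only at its edge.

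A second family of copies surrounds the highest-fold peak of the interval with its centre inside a gene model, in an intron of the transcribed pseudogene 6820431F20Rik (20267596 to 20267930, fold 2.28). It had 4 further copies, 97.6% to 99.1% identical. Of the 5 copies, 3 lay wholly under a peak and the other 2 under none. They are shown in the same way.
6820431F20Rik, chr8:20267703-20267822, plus strand: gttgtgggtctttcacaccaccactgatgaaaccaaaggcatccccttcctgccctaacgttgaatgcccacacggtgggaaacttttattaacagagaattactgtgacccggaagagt
Beside Gm6483, chr8:19697913-19698032, minus strand: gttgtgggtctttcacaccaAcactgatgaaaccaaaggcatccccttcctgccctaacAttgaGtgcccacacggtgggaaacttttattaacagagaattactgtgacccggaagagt
Beside Gm21811, chr8:20151908-20152027, minus strand: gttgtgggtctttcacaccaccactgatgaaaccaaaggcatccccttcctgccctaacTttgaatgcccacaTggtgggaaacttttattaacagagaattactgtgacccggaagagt
2610005L07Rik, chr8:20394986-20395105, plus strand: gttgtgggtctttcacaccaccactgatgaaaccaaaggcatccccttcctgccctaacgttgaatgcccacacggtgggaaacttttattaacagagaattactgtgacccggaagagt
Beside Gm21092, chr8:20583037-20583156, minus strand: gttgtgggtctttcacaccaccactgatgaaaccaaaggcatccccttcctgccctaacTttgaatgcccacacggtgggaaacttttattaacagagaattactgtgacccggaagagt

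The copies with a peak were those in 6820431F20Rik and 2610005L07Rik, identical to each other over these bases, and the one beside Gm21092, with 1 differing base. Those without a peak differed at 3 bases (beside Gm6483) and 2 bases (beside Gm21811).

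In the second defensin cluster the highest fold at a defensin gene was 1.87, over the α-defensin pseudogene Defa-ps3 (peak 21078115 to 21079307). Of this peak, 59.6% recurred in 5 further copies of the cluster, 97.2% to 99.0% identical, and none of these 5 copies lay under a peak. A window of 120 bases just past the end of the Defa-ps3 gene model, which ends at 21078846, was shared without a difference by 4 of the 6 copies.
Defa-ps3, chr8:21078892-21079011, plus strand: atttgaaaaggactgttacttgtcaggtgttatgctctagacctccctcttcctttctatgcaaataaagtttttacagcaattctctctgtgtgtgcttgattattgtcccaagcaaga
Defa-ps5, chr8:21219812-21219931, plus strand: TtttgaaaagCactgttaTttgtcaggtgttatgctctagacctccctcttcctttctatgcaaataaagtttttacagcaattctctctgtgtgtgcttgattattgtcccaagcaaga
Gm15300, chr8:21309991-21310110, plus strand: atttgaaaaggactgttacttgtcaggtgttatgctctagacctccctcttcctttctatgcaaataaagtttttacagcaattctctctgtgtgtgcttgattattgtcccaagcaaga
Gm15305, chr8:21439513-21439632, plus strand: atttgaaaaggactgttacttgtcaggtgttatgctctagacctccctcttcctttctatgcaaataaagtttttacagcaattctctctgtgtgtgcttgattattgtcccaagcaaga
Gm15311, chr8:21577472-21577591, plus strand: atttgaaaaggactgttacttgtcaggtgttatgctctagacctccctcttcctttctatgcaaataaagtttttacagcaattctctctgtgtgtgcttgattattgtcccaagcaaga
Defa-ps9, chr8:21689480-21689599, plus strand: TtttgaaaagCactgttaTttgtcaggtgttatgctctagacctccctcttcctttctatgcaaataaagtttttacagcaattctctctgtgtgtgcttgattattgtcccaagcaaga

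The copies named for Defa-ps5 and Defa-ps9 carried the same 3 differing bases. The copy at Gm15300 was 99.0% identical to the Defa-ps3 peak over 711 bases and lay under no peak.

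The highest fold of all 267 members was outside both clusters and the interval, in single-copy sequence. It was 2.65, in an intron of Atp7b (22046392 to 22047334), the gene of a copper-transporting ATPase, and ranked 51 among all 48681 peaks. The first 300 bases of this peak are shown with CpG dinucleotides, the usual sites of DNA methylation, in capitals.
Atp7b intron, chr8:22046392-22046691, plus strand: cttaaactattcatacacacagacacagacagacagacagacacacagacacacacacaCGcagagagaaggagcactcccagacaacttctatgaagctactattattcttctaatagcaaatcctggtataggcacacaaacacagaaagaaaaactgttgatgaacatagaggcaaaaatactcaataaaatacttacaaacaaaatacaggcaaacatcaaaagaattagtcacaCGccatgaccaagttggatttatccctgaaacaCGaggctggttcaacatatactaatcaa

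These bases held 3 CpG dinucleotides. The peak had a pileup of 14.8 fragments over a local background of 4.96, and none of its 50-base words occurred a second time in the primary chromosomes, although 35.7% of its bases were marked as repeats.

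Peak density in the region was 37.9 per Mb of ungapped sequence (95% exact Poisson interval 33.5 to 42.7), against 19.7 per Mb over the other 2340 peaks of chromosome 8 (18.9 to 20.6) and 20.1 per Mb over the 48099 peaks on the rest of the autosomes (20.0 to 20.3). The ratio of the region to the rest of chromosome 8 was 1.92 (1.68 to 2.18). In the interval between the clusters the density was 125 per Mb (105 to 149), 5.54 times that of the rest of the region (4.32 to 7.09). Without the interval the region held 136 peaks, 22.6 per Mb (19 to 26.8), and its ratio to the rest of chromosome 8 was 1.15 (0.958 to 1.36), a range that holds 1.

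The defensin clusters themselves were not dense. The first cluster held 12 peaks (23.0 per Mb, 11.9 to 40.1) and the second 25 peaks (23.7 per Mb, 15.3 to 34.9). The proximal flank had 29 peaks (21.1 per Mb, 14.1 to 30.3) and the distal flank 70 (22.9 per Mb, 17.9 to 29), so that the 95% ranges of these 4 stretches overlapped and none reached that of the interval between the clusters. Defensin clusters on other chromosomes had few peaks too: 1 on chromosome 1 (18.2 per Mb, 0.46 to 101, 3 genes), 3 on chromosome 2 (18.3 per Mb, 3.77 to 53.5, 11 genes) and 2 on chromosome 14 (24.8 per Mb, 3.0 to 89.6, 5 genes).

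**Figure D1:**
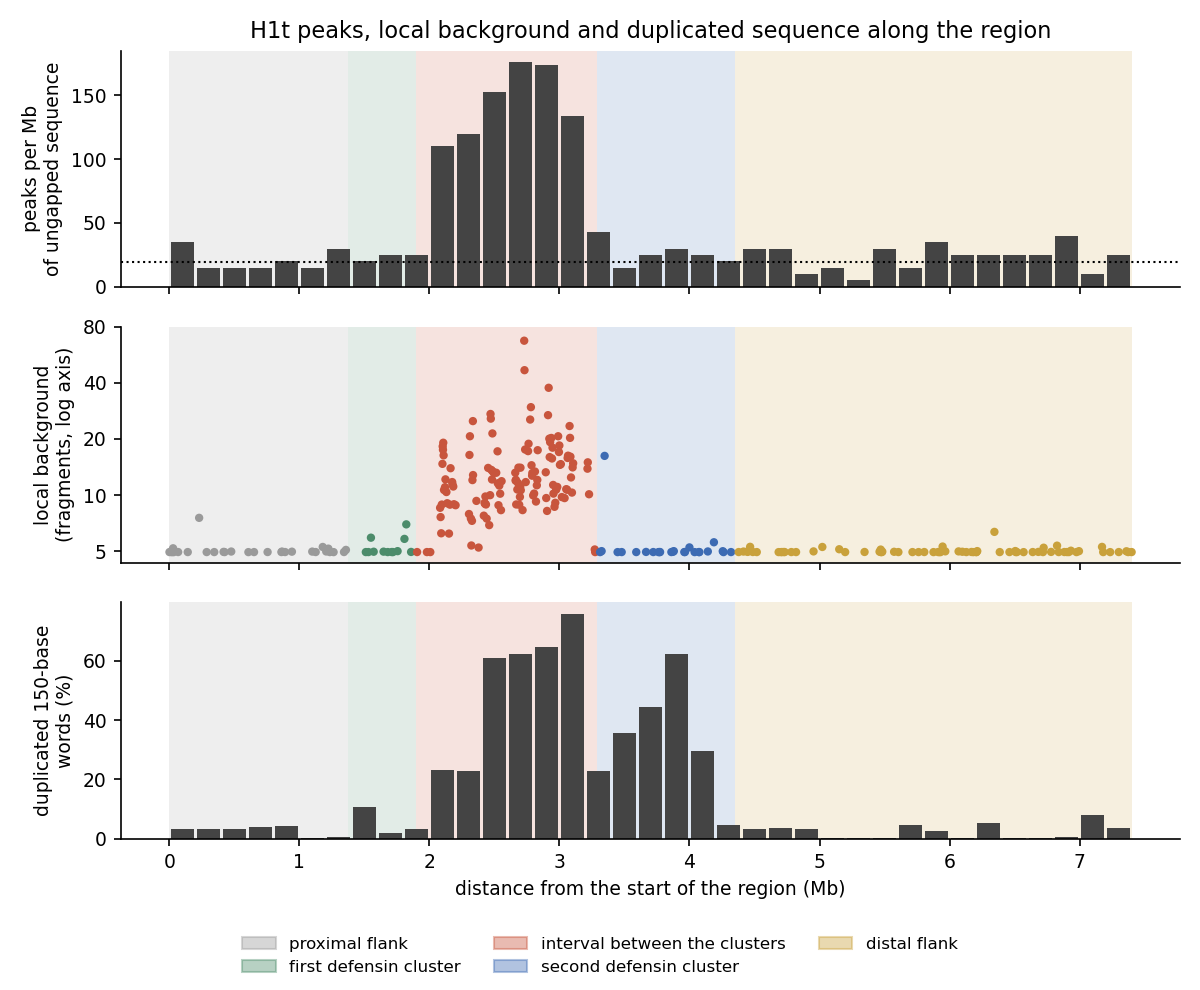
Peaks along the region in bins of 200 kb, with distance from its start in Mb on the x axis and 5 shaded stretches. The top panel gives peaks per Mb of ungapped sequence (dotted line, 19.7 per Mb on the rest of chromosome 8), the middle panel the local background of each of the 267 peaks in fragments on a log axis, and the bottom panel the percent of 150-base words that occur more than once in the genome. Density and background rise together in the interval between the clusters. Duplicated words extend into the second cluster, where the density is 23.7 per Mb and the median background 4.96.

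The step in density was sharp. The 200-kb bin from 19400001 held 5 peaks and the next bin, from 19600001, held 22. The following bins held 12, 24, 25, 26 and 15 peaks, with 100 kb to 157 kb of ungapped sequence each, and the bin from 20800001, which crosses into the second cluster, held 8. From there to the end of the region no bin held more than 8. Neighbouring peaks were a median of 2129 bp apart inside the interval and 32996 bp apart elsewhere in the region.

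The peaks of the interval were wide. Their median width was 1372 bp (quartiles 522 and 3090 bp), against 664 bp in the rest of the region (387 and 911 bp) and 653 bp over all peaks. Together they covered 339.9 kb, or 32.5% of the ungapped interval, whereas peaks covered 1.65% of the rest of the region and 1.41% of the rest of chromosome 8. The interval thus held 77.4% of all bases under the members. A width of at least 5 kb was reached by 0.341% of all 48681 peaks and by 19 of the 267 members (7.12%), each of them in the interval. They were 11.4% of the 166 peaks of this width in the list, and the rest of chromosome 8 had none.

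The widest of all 48681 peaks lay here, over 20189 bp from 20629659 to 20649847, across the end of the protein-coding gene model Gm21119, with a fold of 1.98, a pileup of 20.1 and a background of 9.64. The peak ranked 3 by width covered 15540 bp from 20820073 to 20835612 and contained the pseudogene Gm20946 whole, with a fold of 1.98 and a pileup of 21. In all, 2 of the 20 widest and 14 of the 100 widest peaks of the genome were members.

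**Figure D2:**
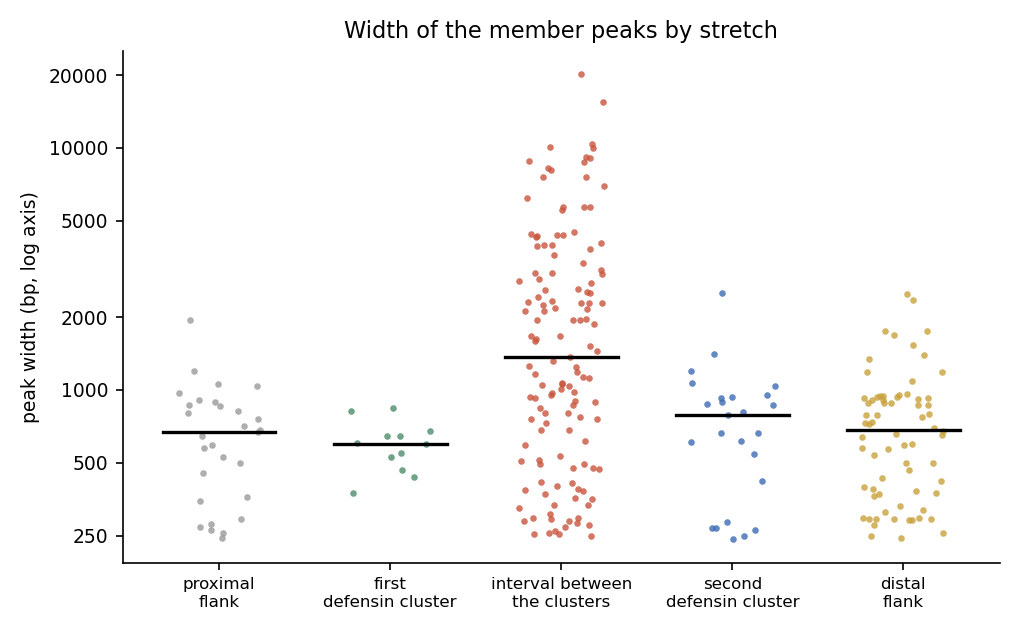
Width of each member peak in bp on a log axis, by stretch, with the points spread sideways at random and a line at the median. The interval between the clusters reaches 20189 bp and has a median of 1372 bp, and the widest peak of the other 4 stretches is 2508 bp.

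The peaks of the interval had more fragments in both ChIP and input than those of the rest of the region. The pileup, the number of overlapping ChIP fragments given for a whole peak, had a median of 21.4 in the interval (quartiles 18.2 and 25.5). It was 9.29 in the rest of the region (9.05 and 9.73), a ratio of 2.3. The local background, the number of fragments expected from the input, was worked back from the pileup and the fold. Both are single values per peak, so this background is approximate, most of all for wide peaks. Its median was 11.8 in the interval, 2.37 times the genome-wide floor of 4.95, and 4.96 elsewhere in the region. The fold of pileup over background was the same at the median, 1.71 in both, with a wider spread in the interval (quartiles 1.54 and 1.85) than outside it (1.68 and 1.77). The lowest fold was 1.33 in the interval and 1.58 outside it, and 38 interval peaks had a fold under that lowest outside value.

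A local background over the genome-wide floor by more than 2% was found for 22.3% of all peaks and for 147 of the 267 members (55.1%, 95% Wilson interval 49.1 to 60.9). The interval held 127 of these 147. Its share was 127 of 131 peaks (96.9%), against 20 of 136 (14.7%) in the rest of the region. A background of at least 2 times the floor was reached by 91 interval peaks and by 1 other member. The 91 spanned 1136 kb from 19699604 to 20835612, with 7 interval peaks before the first of them and 2 after the last. The 4 interval peaks at the floor lay at its ends, from 19505333 to 19607310 and from 20874680 to 20874936, outside the span of these 91.

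The highest background of the region was 67.2, under a peak of 390 bp from 20328931 to 20329320 inside the long non-coding RNA gene Gm26804, wholly in repeats, with a pileup of 94.9 and a fold of 1.41. Outside the interval the highest was 16.2, under a peak in the second cluster from 20946257 to 20948764, wholly in repeats too, with a pileup of 26.5 and a fold of 1.6.

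**Figure D3:**
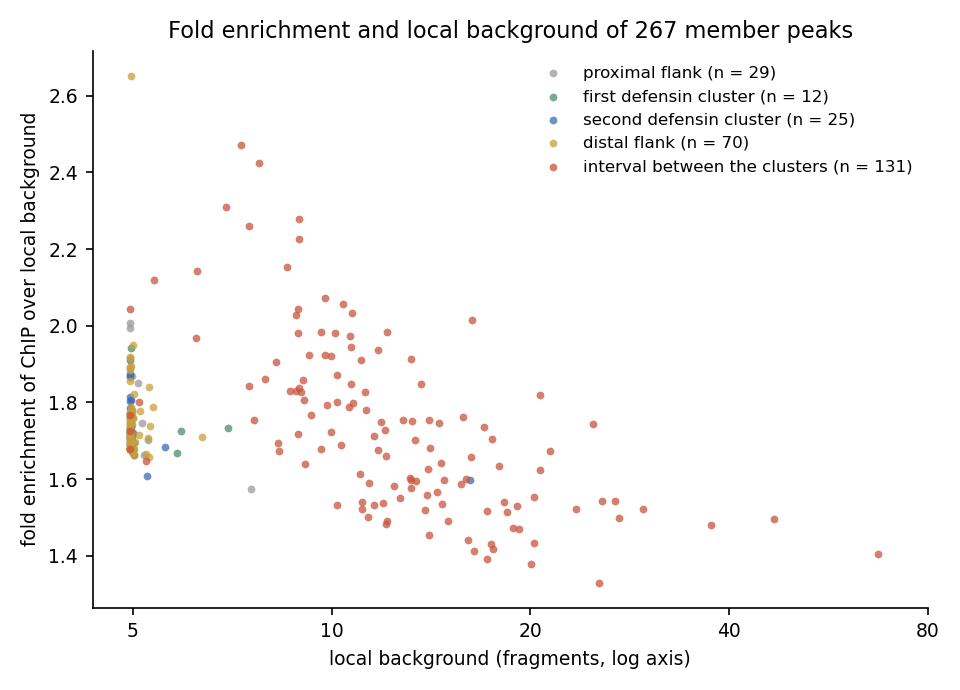
Fold enrichment of each of the 267 member peaks against its local background in fragments on a log axis, coloured by stretch. Most peaks outside the interval stand in a column at the floor near 4.95, although 20 of 136 had a raised background, up to 16.2. The interval's peaks spread to a background of 67.2 with folds that fall to 1.33. The p cutoff for listing a peak lets lower folds pass at higher background.

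Within the interval, the fold was lower where the background was higher (Spearman rho −0.69, Pearson r −0.51 over 131 peaks). The background is part of the fold, the p cutoff lets lower folds pass where the background is higher, and neighbouring peaks share reads. These values are therefore descriptions. Wider peaks had somewhat higher folds (rho 0.37, r 0.42) and no higher background (rho −0.15, r −0.19). Background rose weakly with the share of repeat-masked bases (rho 0.30, r 0.38) and with the number of copies of the peak's 50-base words (rho 0.19, r 0.32).

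The peak caller computes p from the pileup and the local background, so at an equal fold more fragments give a smaller p. The values below describe this and are no separate result. Among peaks with a fold from 1.6 to 1.8, the 40 of the interval had a median −log10 p of 2.33, and 29 of them had a p under 0.01. The 111 elsewhere in the region had the same median fold of 1.71, a median −log10 p of 1.58, and 0 with a p under 0.01. Their pileups were 20.8 and 9.21. The p is the authors' and unadjusted. Over the whole list 11.8% of peaks had a p under 0.01, over the members 100 of 267 (37.5%), in the interval 88 of 131 (67.2%) and in the rest of the region 12 of 136 (8.82%).

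High folds were less unusual. A fold of at least 2 was found for 3.64% of all peaks and for 18 members (6.74%), 16 of them in the interval (12.2% of its peaks). A q under 0.05 was found for 0.255% of all peaks and for 1 member (0.375%), the peak from 19926720 to 19928383 whose copies are shown above, with a −log10 q of 1.52. At the ends of the region the values were ordinary: the last peak before it (17484781 to 17485593), the first and the last inside it (17601022 to 17601883 and 24999549 to 25000269) and the first after it (25061448 to 25062370) each had a pileup of 9.0 and a fold of 1.68.

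Of the 10 highest folds among the members, all but that in Atp7b lay in the interval. They ran from 2.47 to 2.12, with pileups from 12.5 to 21.6 and backgrounds from 5.37 to 8.91, below the interval's median background. Peaks near Gm20778 took 3 of the 10 places: 20033594 to 20036467 at its start (fold 2.23), 20037643 to 20043315 at its end (2.26) and 20055541 to 20064644, whose centre was 19.8 kb away (2.31). The pseudogene Gm6483 held 2 (19681257 to 19683775, fold 2.15, and 19688270 to 19693829, 2.14). The others were the peak beside Gm31371 shown above, 1 in an intron of Gm31371 (19922354 to 19923109, 2.12), 1 over part of Gm45754 with its centre outside the gene (20017854 to 20019306, 2.43) and that in 6820431F20Rik. No function is given here for these predicted gene models.

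The interval held 30 genes of the GENCODE annotation, of which 22 were pseudogenes and 4 protein-coding, and 14 of the 30 are placed here in 3 families of near-identical copies. The family members were picked after their values had been seen, and no gene without a peak was among the genes aligned. That every family member had a peak is therefore fixed by this choice. In the interval 15 of 26 genes with Gm symbols and 3 of 3 with Rik symbols had a peak. A first family had 6 members that aligned to each other over 2.06 to 18.5 kb at 97.8% to 99.5% identity: the protein-coding models 4930467E23Rik, Gm15319, Gm21119 and Gm31371 and the pseudogenes Gm20778 and Gm20946. All 6 had peaks, which covered 28.6% (Gm15319) to 100% (Gm20946) of the gene. Gm31371 had 5 peaks over 42.0% of its length, 4930467E23Rik had 3 over 60.9%, and Gm21119 had 2 over 73.6%.

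A second family had 5 pseudogenes, 6820431F20Rik, 2610005L07Rik, Gm6483, Gm21092 and Gm21811, aligned over 15.1 to 34.9 kb at 97.6% to 99.6% identity. All 5 had peaks, over 59.5% to 82.2% of the gene, with highest folds from 1.87 to 2.28. 6820431F20Rik had 8 peaks, 2610005L07Rik 7 and Gm6483 4. The lincRNA Gm26804 had the most peaks of any gene in the region, 21 over 35.0% of its 128 kb, and it overlaps 6820431F20Rik, Gm15319 and 2610005L07Rik, so these genes count some of the same peaks. A further family was the processed pseudogenes Gm7760, Gm7807 and Gm21112, each of 578 bp and 98.8% to 99.3% identical. Each was overlapped by 1 peak, which was wider than the pseudogene, with folds of 1.97, 1.52 and 1.73 at backgrounds of 10.7, 29.6 and 17.0 in that order. These values belong to the whole peaks, and Gm7760 was covered over 64.4% of its length.

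Across the whole interval, 119 of the 131 peaks (90.8%) had at least 1 further copy in the region of at least 90% of their length and 95% identity, with a median of 4 copies for a peak that had any. For the 98 such peaks with 10 copies or fewer, 308 of 386 copies (79.8%) touched a listed peak, and 58.1% of the bases of these copies lay under one, against 32.5% of the interval as a whole. For 56 of the 98 peaks every copy touched a peak, and for 3 no copy did. In the second defensin cluster 17 of the 25 peaks (68.0%) had such copies. Those with 10 copies or fewer had 49 in the cluster, of which 0 touched a peak. These copies spanned 34.1 kb of a cluster in which peaks covered 1.83% of the bases. The counts of copies are not independent, since peaks that are copies of each other count each other. The copies were searched from the peaks, so the 58.1% includes bases of those peaks and is not a like measure to the 32.5%. No rate was counted for other stretches of the same length, and the interval has more and wider peaks for a copy to touch. These counts are therefore descriptions and no test.

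The peaks that overlapped the 6 copies of the interval's highest-fold peak differed in extent and values, which are those of each whole peak and not of the copy alone. Copy 1 was 100% under its own peak, with a pileup of 19.5, a background of 7.28 and a fold of 2.47. Copy 6 was 98.2% identical and wholly inside the widest peak of the genome (pileup 20.1, background 9.64, fold 1.98). Copy 5, the least alike at 97.1%, was wholly covered as well (fold 1.91, background 8.23).

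Copy 2, at 98.9% identity the most alike, was under a peak over 75% of its bases (fold 1.97, pileup 13.2). Copy 3 was covered over 28.5% (fold 2.31, pileup 17.3) and copy 4 over 46.7%, by a peak with a pileup of 25.3 on a background of 17.6 and the lowest fold of the 6, 1.42. The order of these peaks' folds did not follow the order of identity of the copies. The widest peak as a whole had 4 further copies of 18440 to 20202 bp, each 97.2% or 97.3% identical, and these were under 4 or 5 separate peaks each, which covered 39.8%, 60.8%, 30.8% and 73.7% of them.

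**Figure D4:**
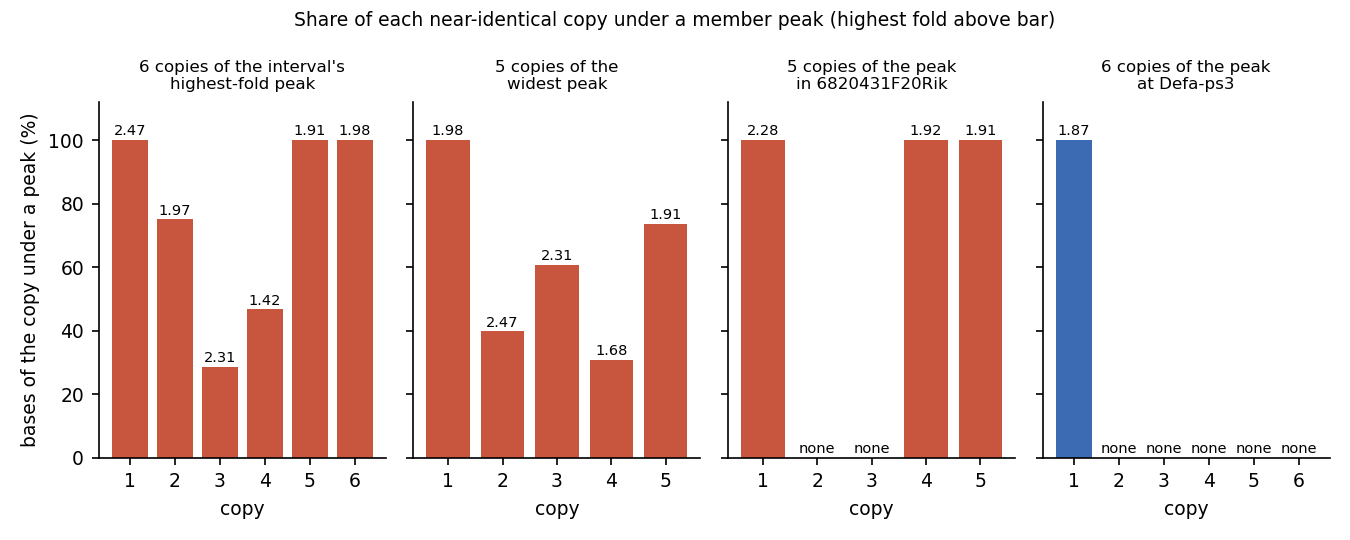
Percent of the bases of each near-identical copy that lay under a member peak, for 4 sets of copies, with the highest fold of an overlapping peak above each bar and copy 1 the peak itself. In the 3 sets of the interval 14 of the 16 copies were covered at least in part, and of the 6 copies at Defa-ps3, in the second defensin cluster, 1 was.

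Duplicated sequence occurred both with and without raised background and dense peaks. Of the 150-base words of the interval, 45.1% occurred more than once in the primary chromosomes, and 86.5% of these recurred inside the region only. The second defensin cluster was not far below, at 33.8% and 82.3%, whereas the first cluster had 5.77% and the flanks 2.68% and 2.47%. A peak was called duplicated when at least 50% of its 150-base words occurred again, as held for 6.82% of all peaks and 110 of the 267 members (41.2%, 35.5 to 47.2). The interval had 95 such peaks of 131 (72.5%), the second cluster 11 of 25 (44.0%) and the first cluster 0 of 12.

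All 95 duplicated peaks of the interval had a raised background, with a median of 11.8. Of the 11 in the second cluster, 2 had (18.2%, 5.14 to 47.7), with a median of 4.96. On the rest of chromosome 8 it was 52 of 96 (54.2%, 44.2 to 63.8), with a median of 5.12. The 36 interval peaks not called duplicated had a raised background in 32 cases, with a median of 12.0. Of these 36, 29 were duplicated by the same limit on 50-base words, all 29 with a raised background, and of the 7 that were not, 3 had one. The second cluster had 20 peaks duplicated on 50-base words.

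Each of the 4 assembly gaps of the region, 3 of 100 kb and 1 of 50 kb, lay in the interval, 350 kb in all. Between 3 and 5 peaks lay within 20 kb of each gap on either side, the nearest at 77 bp and the farthest of the nearest at 9870 bp, with median backgrounds from 7.92 to 14.1. The part of gaps, duplicated sequence and raised background in the density of peaks in the interval was not tested.

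Repeat-rich peaks were about as frequent as in the whole list. At least 50% of the bases were repeat-masked in 24.3% of all peaks and in 56 of the 267 members (21%). Of the bases under members 32.1% were masked, 32.4% in the interval, where 44.3% of all sequence was masked. Members were poor in CpG inside the interval, at 0.533 per 100 bp, against 0.956 in the rest of the region and 0.852 over all peaks. Peaks of the first cluster (0.682) and the proximal flank (0.703) were also below the value for all peaks. Those of the second cluster (0.956) and the distal flank (1.09) were above it. The CpG rate of the interval's whole sequence was not counted.

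The defensin genes had a coverage and folds near those of the region outside the interval. Of 63 genes on the α- and β-defensin lists, 46 of them protein-coding, 7 overlapped a peak by at least 1 bp, each a different peak, and 1.67% of their 136 kb was covered, against 6.23% of the region as a whole and 1.65% of the region without the interval. On the α-defensin list 4 of 39 genes had a peak and on the β-defensin list 3 of 24. The lists go by gene symbol, so related models of the cluster under other symbols are not among the 63. Examples are Gm15300, Gm15305 and Gm15311, which hold copies of part of the Defa-ps3 peak. The folds ran from 1.68 to 1.87, beside a median of 1.71 outside the interval, and the pileups from 9.06 to 12.8, with a lowest possible pileup near 9.0.

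Defb5, a β-defensin gene of the first cluster, had a peak over its start (19247410 to 19247847, fold 1.76, background 4.98). Defb10 had one over its end (21861354 to 21862140, fold 1.69), and Defb1 one of 263 bp inside an intron (21787804 to 21788066, fold 1.68), wholly repeat-masked, with 50-base words that had a median of 8860 copies in the genome.

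Among α-defensins, Defa37 was the only protein-coding gene with a peak (21565257 to 21565526, fold 1.72), in wholly duplicated sequence. The other 3 were pseudogenes. The Defa-ps3 peak covered its gene whole, with a pileup of 10.2 on a background of 4.95. The peak at Defa-ps17 (21472766 to 21473375) had a fold of 1.73, and that at Defa-ps14 in the first cluster (19422237 to 19422612) the same fold on the highest background of the 7, 6.97.

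Of 28 single-copy genes of the flanks on the list, 13 had a peak, 34 in all, and 1.38% of their bases were covered. Zmat4, a zinc finger protein gene of 521 kb, had 14 peaks over 1.76% of its length with a median background of 4.95 and a highest fold of 1.9. Ank1, which encodes an ankyrin of the red cell membrane skeleton, had 5 (highest fold 1.92). Atp7b had 3, among them that with the highest fold of all members, 2.65. Mcph1, the microcephalin gene, had 3, of which the highest fold was 1.99. Tpte, a testis-expressed membrane phosphatase gene not on that list, had 5 over 2.82% of its length (highest fold 1.77).

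The distal flank also holds genes of the ADAM family, membrane proteins with a disintegrin and a metalloprotease domain, several of them expressed in the testis. Of 5 on the list, 3 had peaks: Adam9 had 3 (highest fold 1.95), Adam5 had 2 (1.84) and Adam32 had 1 (1.76). The others had none. Peaks covered 0.788% of the 399 kb of the ADAM genes, less than the 1.65% of the region without the interval. Both genes of indoleamine dioxygenases, enzymes that break down tryptophan, had peaks, 2 at Ido2 and 1 at Ido1, over 3.32% of their 57.3 kb. Predicted genes with Gm symbols numbered 95, and 24 had a peak. Of the 26 in the interval 15 had one, and 35.4% of their bases were covered, against 3.95% for the 31 in the second cluster. All 3 genes with Rik symbols in the interval had peaks, over 62.4% of their bases, and none of the other 6 had.

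By position, 157 of the 267 centres (58.8%, 52.8 to 64.5) lay between genes, 97 in introns and 13 in exons. Neither these places nor start sites were counted over all peaks, so whether the shares are unusual was not tested. Within 1 kb of a start site were 38 (14.2%, 10.5 to 18.9). Wider peaks reach more start sites, and the median width was 1372 bp in the interval and 664 bp in the rest of the region. The share near a start site was 17.6% in the interval (12.0 to 25) and 11.0% in the rest (6.8 to 17.4). These ranges overlap. The 7 in the second cluster were at the α-defensin genes and pseudogenes Defa-ps3, Defa31, Defa-ps17 and Defa37 and at the predicted genes Gm15304, Gm15314 and Gm15313.

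Set beside 322 other autosomal windows of 7.4 Mb, the region ranked 5th in peak density (37.9 per Mb, others 10.5 to 65 with a median of 19.6) and 2nd in the share of sequence covered (6.23%, others 0.707% to 12.9%). It ranked 2nd in the share of peaks with a raised background (55.1%, others 8.97% to 71.9%) and 4th in the share that were duplicated (41.2%, others 0% to 75.6%). These ranks are descriptions, since the region was chosen from the same list.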

How the data were processed

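Chromatin of mouse testicular cells was sequenced in 2 H1t ChIP and 2 input libraries as paired reads. After a quality check (FastQC 0.11.5), the authors aligned each library to GRCm38.p5 (Bowtie2, local mode). Both ChIP libraries together were compared with both inputs in MACS2 2.1.2, in its broad mode with paired ends, at a p cutoff of 0.05 and with an effective genome size of 1.87e+09. How reads that fit several copies were placed is not given in the sources used here. The deposited table holds 48681 peaks from 39221290 ChIP and 30377916 input fragments kept of 51192421 and 55300487, with a mean length of 241 bp. It gives the ChIP signal of a peak as the pileup of fragments computed by the authors' peak caller. The −log10 of the unadjusted p and of the q and the fold enrichment, a ratio to the local background, also come from the authors' peak caller. The header says that q was not computed, yet the column holds values. Columns of values per sample left out numbered 0.

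The local background was worked back by adding 1 to the pileup, dividing by the fold and subtracting 1, and was called raised at over 2% above the genome-wide 4.95. The sequence used was that of GRCm38.p6, a patch release with the same primary chromosomes as p5, and 0 peaks ended past a chromosome. Genes came from GENCODE vM21, and lower-case letters of the RefSeq sequence were taken as repeats. Words of 50, 100 and 150 bases were counted exactly on both strands, and copies inside the region were found with blastn 2.17.0 at 95% identity and 90% of the length (50% for the defensin peak). The copy search and the gene families were added after the values had been seen. Shares carry 95% Wilson intervals and densities exact Poisson intervals. With pooled libraries no test between groups was possible. The word counts were tested on simulated data, where 5703 of 5703 words were counted right. Software was Python 3.11.15 with scipy 1.17.1 and numpy 2.4.6, matplotlib 3.10.9 for plots, pandas 2.3.3 for tables and numba 0.67.0 for word counts.

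The members, the gene lists and the rules were chosen with earlier results of these data known. Named were the 10 member peaks with the highest fold, every peak at a gene of the defensin lists, the 5 protein-coding and 5 other genes with the most peaks, and up to 4 genes of each list. Peaks and genes outside this rule (the widest peaks, those with the highest background, the smaller copies of the families and the genes at start-site peaks) were chosen after their values were seen. Alternatives were stricter peaks, merged peaks, trimmed limits, other limits on background and other word lengths, overlaps and gene sets.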

Additional observations from a re-analysis of the deposited data

How the results depend on the processing

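No paired analysis was possible because the libraries of each kind were pooled before peak calling and no peak has a value per library, and leaving out a replicate was not possible for the same reason. Peak density, 37.9 per Mb as reported, was 14.2 with peaks of p under 0.01, 2.55 with a fold of at least 2, 0.142 with q under 0.05 and 25.4 with peaks merged within 3 kb. Stricter limits lower any density, and that of the rest of chromosome 8 was not computed at them. A p under 0.01 was kept by 37.5% of the members and 11.2% of the peaks on the rest of chromosome 8. For a fold of at least 2 the shares were 6.74% and 3.08%. With p under 0.01 the median fold was 1.83 in place of 1.71, the share with raised background 88.0% in place of 55.1%, the share duplicated 66.0% in place of 41.2%, the share of bases masked 34.0% in place of 32.1%, the share of centres between genes 66.0% in place of 58.8% and the median gap between peaks 3662 bp in place of 8220 bp. The masked share was 23.3% for a fold of at least 2. A background limit of 50% gave 45.7% raised. The share duplicated was 55.8% with 50-base words, 48.7% with 100-base words and 55.4% for any duplicated 150-base word. With protein-coding genes only, 4 peaks lay in defensin genes in place of 7 and 74.5% of centres lay between genes. Taking 0.5 Mb off each end, counting any overlap, a background limit of 10%, the peaks at the genome-wide background and other overlaps with defensin genes moved these values by less than their counting intervals. A pileup near 9.0 was the lowest a peak could have at the genome-wide background, so sites with fewer fragments are not in the list.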
